A study of Mus musculus with 2 samples.

Results

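Chemokine-high hepatic stellate cells (HSCs) were the HSC barcodes that carried the most RNA of 4 chemokines, Cxcl9, Cxcl10, Ccl2 and Ccl7, within each of 2 single-cell libraries. They numbered 448 of 19955 barcodes, with 243 in the p16-LRTD library and 205 in the p16-Alb-LRTD library. HSCs are the vitamin A-storing mesenchymal cells of the liver sinusoid. They had been isolated from male mice by pronase and collagenase perfusion and a Nycodenz density gradient, and sequenced with the 10x Genomics 3′ v3.1 kit. Both groups of mice received carbon tetrachloride (CCl4) for 4 weeks, tamoxifen and diphtheria toxin. The p16-Alb-LRTD mice carried p16-CreERT2, Alb-DreERT2 and a R26-CAG-LSL-RSR-tdTomato-2A-DTR reporter, all heterozygous on a C57BL/6 background. The Alb promoter drives Dre in hepatocytes and the p16 promoter drives Cre, so that hepatocytes with high p16 gain tdTomato and the toxin receptor and are removed by the toxin. The p16-LRTD littermates lacked Alb-DreERT2. The study names leaky expression of the toxin receptor as a possible limit of the model. The number of mice behind each library and their age were not given. With 1 library per genotype there was no replicate and no test, and every interval below is a 95% interval that covers counting error only.

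Barcodes were eligible when at most 5% of their UMIs (unique molecular identifiers, 1 per captured RNA molecule) were mitochondrial, when 2000 to 7000 genes and at most 50000 UMIs were detected, and when the summed UMIs of Lrat, Ecm1, Hgf and Reln reached 15 per 10000. These 4 genes are HSC markers. Each eligible cell was scored by the mean of ln(1 + UMIs per 10000) of the 4 chemokines, and the top 3% of each library by this score were taken. In p16-LRTD, 8092 of 11149 barcodes were eligible, which left 7849 remaining HSCs. In p16-Alb-LRTD, 6837 of 8806 were eligible, which left 6632. The lowest score taken was 1.026 in p16-LRTD, with the next cell at 1.025. In p16-Alb-LRTD these scores were 1.301 and 1.296. Within 0.1 of the cut lay 68 chemokine-high and 83 remaining HSCs in p16-LRTD, and 25 and 53 in p16-Alb-LRTD. The score had no gap at the cut, and whether these cells form a separate type was not tested.

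**Figure D1:**
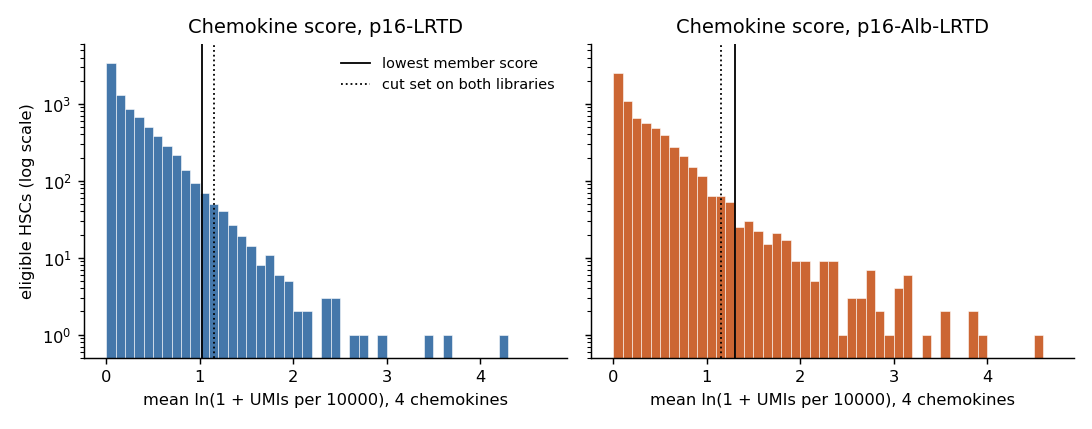
Number of eligible HSCs (log axis) by chemokine score in p16-LRTD and p16-Alb-LRTD. The solid line is the lowest score taken in each library, 1.03 and 1.30, and the dotted line is the cut of 1.15 that holds the top 3% of both libraries together; the counts fall without a gap at either line.

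Chemokines are small secreted proteins that attract leukocytes along a gradient. Ccl2 and Ccl7 bind Ccr2 and draw monocytes, while Cxcl9 and Cxcl10 bind Cxcr3 and draw activated T cells and NK cells. NF-κB, which acts downstream of TNF, IL-1 and Toll-like receptors, is known to activate Ccl2, Ccl7 and Cxcl1, and interferon-γ is known to induce Cxcl9, Cxcl10 and the guanylate-binding proteins. HSCs are a known source of such chemokines in the injured liver.

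The 4 genes lie in 2 chemokine clusters of the mouse genome (GRCm38). Ccl2 occupies chr11:82035571-82037453 and Ccl7 chr11:82045712-82047525, both on the plus strand. Cxcl9 occupies chr5:92321347-92328079 and Cxcl10 chr5:92346638-92348889, both on the minus strand. Cxcl10 lies inside Art3, which is on the other strand. The 250 bases upstream of the start of 4 genes are shown because the results turn on these genes: Cxcl9 and Cxcl10 are score genes, Cxcl1 is a chemokine outside the score that answers to NF-κB, and Gbp2 is induced by interferon-γ. They come from RefSeq (GRCm38.p6), each read 5′ to 3′ on the strand of its gene, at chr5:92328080-92328329 (minus) for Cxcl9, chr5:92348890-92349139 (minus) for Cxcl10, chr5:90890995-90891244 (plus) for Cxcl1 and chr3:142620413-142620662 (plus) for Gbp2. Capitals mark matches to GAAANNGAAA, the core of the interferon-stimulated response element (ISRE), to TTCNNNGAA, the interferon-γ-activated (GAS) element, or to the NF-kappaB consensus, each searched on both strands.
Cxcl9: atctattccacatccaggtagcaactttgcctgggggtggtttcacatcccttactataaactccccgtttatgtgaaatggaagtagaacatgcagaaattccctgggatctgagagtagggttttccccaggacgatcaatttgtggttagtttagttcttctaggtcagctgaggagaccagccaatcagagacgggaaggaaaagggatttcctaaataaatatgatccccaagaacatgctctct
Cxcl10: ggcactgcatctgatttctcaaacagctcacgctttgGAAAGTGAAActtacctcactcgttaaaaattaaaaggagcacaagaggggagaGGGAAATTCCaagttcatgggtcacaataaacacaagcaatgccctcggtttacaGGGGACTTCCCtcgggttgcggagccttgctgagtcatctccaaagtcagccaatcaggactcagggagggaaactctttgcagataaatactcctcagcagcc
Cxcl1: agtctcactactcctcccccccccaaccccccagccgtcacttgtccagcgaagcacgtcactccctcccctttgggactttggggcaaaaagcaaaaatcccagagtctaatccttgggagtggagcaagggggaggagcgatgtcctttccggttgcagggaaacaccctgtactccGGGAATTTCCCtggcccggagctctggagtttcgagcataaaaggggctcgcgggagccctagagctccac
Gbp2: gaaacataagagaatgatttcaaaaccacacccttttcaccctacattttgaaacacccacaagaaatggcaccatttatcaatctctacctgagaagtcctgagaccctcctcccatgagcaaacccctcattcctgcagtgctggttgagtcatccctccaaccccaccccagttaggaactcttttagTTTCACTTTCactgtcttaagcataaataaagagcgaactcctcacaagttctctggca
Cxcl10 held 1 ISRE match, from 204 to 213 bases upstream, and NF-kappaB matches at 150 to 159 and at 94 to 104 bases, the latter an overlapping pair. Cxcl1 held an overlapping pair of NF-kappaB matches at 61 to 71 bases, and Gbp2 an ISRE match at 50 to 59 bases. No match to the 3 motifs was found in the Cxcl9 window. Of 32851 promoters of this kind in the mouse table, 2.98% held the ISRE core, 7.02% the GAS element and 7.25% the NF-kappaB consensus. The GENCODE start of Gbp2, at position 142620602 of chromosome 3, lies upstream of the RefSeq start used for this window, so the ISRE match of Gbp2 falls inside the GENCODE gene. A match is a run of letters, not a bound site.

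The chemokine-high cells had passed the HSC gate and the barcodes of other cell types lay below it, which largely sets their contrast in HSC markers. As a description, HSC markers were far higher in the chemokine-high cells than in barcodes of other cell types. Colec11 had a UMI in 99.6% of them in p16-LRTD and 99.5% in p16-Alb-LRTD, Rgs5 in 99.6% and 100%, and Pdgfrb, the PDGF receptor of pericyte-like cells, in 97.1% and 93.2%. In the remaining HSCs these shares were 99.97% in both libraries for Colec11, 98.1% and 96.9% for Rgs5 and 98.4% and 95.3% for Pdgfrb. UMIs of these genes occurred in cells of other types too, and whether they came from RNA free in the droplets was not tested. The non-HSC gates described below had a Colec11 UMI in 34.5% to 50.5% of their cells and an Rgs5 UMI in 33.8% to 52.0%. A Pdgfrb UMI was found in 4.63% to 14.9% of them. After thinning each cell to 5000 UMIs, Colec11 was found in 99.6% and 99.5% of chemokine-high HSCs and in 10.4% to 18.0% of the gates, and Pdgfrb in 80.2% and 57.6% against 1.42% to 5.97%. The level of Colec11 was 3793 and 2271 CPM (UMIs per 1000000 UMIs, summed over the cells of a group) in chemokine-high HSCs and 26.9 to 53.1 CPM in the gates. Lrat, a gate gene that encodes the enzyme of vitamin A storage, was at 1184 and 1169 CPM in chemokine-high HSCs. In the remaining HSCs it was at 1294 and 1499.7 CPM, while the non-HSC gates stood between 18.2 and 27.8 CPM. The contrast of Lrat with these gates was fixed by the choice of cells. Genes of the HSC identity list had ratios above 1 in 11 of 18 cases in p16-LRTD and in 2 of 18 in p16-Alb-LRTD, set against the remaining HSCs. The median depth of the chemokine-high HSCs was 16269 UMIs in p16-LRTD and 19295 in p16-Alb-LRTD, against 17229 and 18296 in the remaining HSCs. They made up 1.93% to 3.56% of the cells in the 4 equal bins of depth in p16-LRTD and 2.22% to 4.51% in p16-Alb-LRTD. The deepest bin had the lowest share in p16-LRTD, 1.93%, and the highest in p16-Alb-LRTD, 4.51%. The median mitochondrial share was 2.44% and 1.98% in chemokine-high HSCs, against 2.48% and 2.15% in the remaining HSCs. The 2 libraries shared 95 barcodes, 14 of them eligible in both and 0 chemokine-high in both.

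Markers of other cell types were present in some of these barcodes. UMIs of the Kupffer cell, the monocyte and macrophage, or the sinusoidal endothelial list exceeded 10 per 10000 in 12 of 243 chemokine-high HSCs of p16-LRTD (4.94%) and 12 of 205 of p16-Alb-LRTD (5.85%), against 4.10% and 3.94% of the remaining HSCs. These are called mixed barcodes here. In 11 and 10 of the 12 the endothelial list passed the limit. The summed endothelial level of a chemokine-high HSC ran from 0 through a median of 3.28 to 231 per 10000 in p16-LRTD, and from 0 through 2.73 to 121 in p16-Alb-LRTD. The summed Kupffer cell level ran from 0 through 1.16 to 104 and from 0 through 0.864 to 128, and was 0 in 19.8% and 17.1% of these cells. The macrophage list ran from 0 through 0.467 to 57.0 and from 0 through 0.275 to 78.9. Lymphocyte markers summed to 1.43 and 1.18 CPM and neutrophil markers to 0.954 and 1.41 CPM. Each gene group below was therefore computed with and without mixed barcodes.

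The values that chose the cells are given as a description. Ccl2 was at 3128 CPM in chemokine-high HSCs of p16-LRTD, against 165 CPM in the remaining HSCs, and at 5035 against 173 CPM in p16-Alb-LRTD. Cxcl10 was at 1170 against 37.7 CPM and at 2763 against 115 CPM. Both genes were general among the chemokine-high HSCs: all of them held a Ccl2 UMI in both libraries, and 95.1% and 98.5% held a Cxcl10 UMI. Ccl7 was at 201 against 7.21 CPM and at 435 against 9.12 CPM, and had a UMI in 39.9% and 71.7% of the cells. Cxcl9 was at 74.0 against 3.26 CPM and at 307 against 6.63 CPM. A Cxcl9 UMI was found in only 15 (6.17%) and 27 (13.2%) of the cells, so the chosen cells are HSCs high in Ccl2 and Cxcl10, not cells that share all 4 chemokines. The chemokine-high HSCs held 35.6% and 49.4% of all Ccl2 UMIs of eligible HSCs, 47.4% and 44.7% of those of Cxcl10, 44.8% and 61.4% of those of Ccl7, and 39.7% and 60.8% of those of Cxcl9.

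Cells differed widely in how much of each chemokine they carried. The median chemokine-high HSC held 39 Ccl2 UMIs in p16-LRTD, with quartiles of 20 and 65 and a highest cell of 351. In p16-Alb-LRTD the median was 70, the quartiles 33 and 141 and the highest cell 551. The median for Cxcl10 was 8 UMIs (quartiles 3 and 16, highest 329) and 30 UMIs (12 and 62, highest 610). Ccl2 was spread over many cells, whereas Cxcl9 came from few: the 10 highest cells held 18.2% and 20.7% of the Ccl2 UMIs of the chemokine-high HSCs, but 94.2% and 78.7% of the Cxcl9 UMIs. One cell of p16-LRTD held 33.2% of its Cxcl9 UMIs. With the 10 highest cells left out, the log2 ratio of Cxcl9 over the remaining HSCs was 0.48 and 3.39. The most frequent combination was Cxcl10 with Ccl2 alone in p16-LRTD, in 134 cells, followed by Cxcl10, Ccl2 and Ccl7 in 83. In p16-Alb-LRTD the order was the other way round, with 54 and 122 cells. All 4 chemokines were detected together in 5 and 22 cells. Ccl2 was the largest term of the score in 198 and 153 cells and Cxcl10 in 40 and 49.

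Chemokine RNA in these cells was set against the other cells of the same libraries. Barcodes below the HSC gate were put in a Kupffer cell gate (Clec4f, Vsig4, C1qa and C1qb at 15 or more per 10000, 323 and 202 cells) or an endothelial gate (Stab2, Clec4g, Kdr and Ptprb at 15 or more, 429 and 281 cells). Since the chemokine-high HSCs were chosen on these genes, the gates are set beside all eligible HSCs as well. Cxcl10 was at 39.0 and 124 CPM in the Kupffer cell gate and 109 and 324 CPM in the endothelial gate, against 69.6 and 200.2 CPM in all eligible HSCs. Ccl2 was at 77.1 and 379 CPM in the Kupffer cell gate and at 67.7 and 14.98 CPM in the endothelial gate, against 248 and 330.0 CPM in all eligible HSCs. Cxcl9 was at 129 CPM (p16-LRTD) and 188 CPM (p16-Alb-LRTD) in the endothelial gate, against 5.25 and 16.4 CPM in all eligible HSCs. Both CXC chemokines were thus higher in the endothelial gate than in HSCs as a whole, and Ccl2 was lower there. After each cell was thinned to 5000 UMIs, 4.53% and 10.2% of chemokine-high HSCs held a Cxcl9 UMI, against 31.2% and 35.6% of the endothelial gate and 0.978% and 1.48% of all eligible HSCs. For Ccl7 these shares were 21.4% and 50.7% in chemokine-high HSCs, 0.240% and 0.356% in the endothelial gate and 3.11% and 4.57% in eligible HSCs. The Kupffer cell gate stood above eligible HSCs for Ccl7, with 6.60% and 20.9% of thinned cells and 30.6 and 145 CPM, against 12.7 and 22.9 CPM. Its Cxcl9 was at 72.6 and 220.2 CPM, of which 10 cells held 99.02% and 95.7%, and 1.26% and 8.46% of its thinned cells held a Cxcl9 UMI. Unthinned median depths were 11679 and 11973 UMIs in the endothelial gate and 20377 and 25357 in the Kupffer cell gate. The thinning left out 16 and 7 shallower eligible HSCs.

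**Figure D2:**
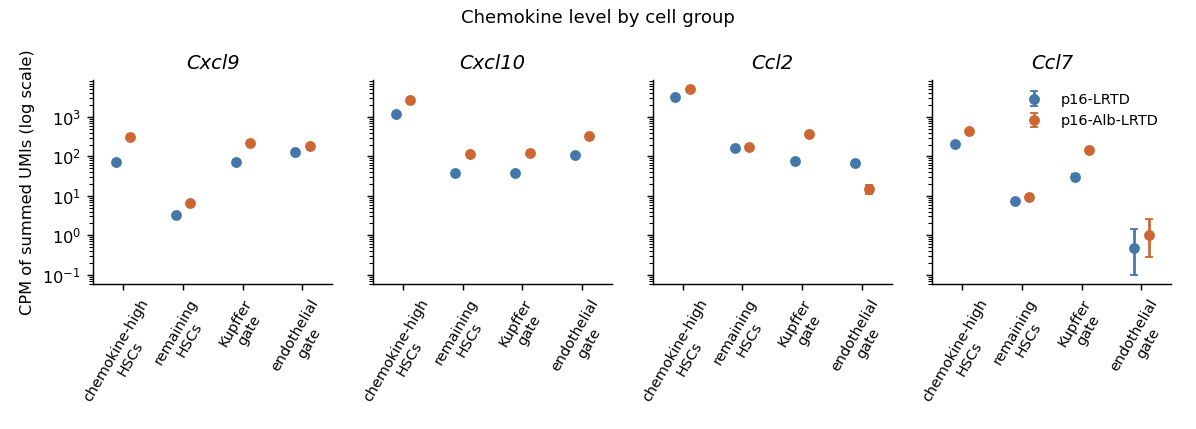
Level (CPM of summed UMIs, log axis, with 95% counting intervals) of the 4 score chemokines in chemokine-high HSCs, remaining HSCs and the Kupffer cell and endothelial gates of each library. Ccl2 and Cxcl10 are highest in chemokine-high HSCs of both libraries, while Cxcl9 in the endothelial gate, at 129 CPM, is above the 74.0 CPM of the chemokine-high HSCs in p16-LRTD and, at 188 CPM, below their 307 CPM in p16-Alb-LRTD.

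Cxcl9 in chemokine-high HSCs moved with the markers of other cell types. Of the cells with a Cxcl9 UMI, 6 of 15 (40%) in p16-LRTD and 7 of 27 (25.9%) in p16-Alb-LRTD were mixed barcodes, against 6 of 228 (2.63%) and 5 of 178 (2.81%) of those without one. When mixed barcodes were left out and the top 3% taken again, 233 and 197 cells were chosen, of which 3.86% and 10.2% held Cxcl9. Cxcl9 was then at 49.1 against 1.63 CPM in p16-LRTD (log2 ratio 4.91) and at 273 against 3.33 CPM in p16-Alb-LRTD (6.36). The choice fixes that the score chemokines are high in these cells, and the other 3 had log2 ratios of 5.01 and 4.59 for Cxcl10, 4.25 and 4.87 for Ccl2, and 4.87 and 5.59 for Ccl7.

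Whether the 4 chemokines mark the same cells was asked by choosing cells on 3 of them and measuring the one left out. Each left-out chemokine was higher in the cells so chosen in both libraries. Ccl2 was at 1740 against 200 CPM in p16-LRTD, a log2 ratio of 3.12 (3.09 to 3.16), and at 4042 against 208 CPM in p16-Alb-LRTD (4.28, 4.25 to 4.31). Cxcl10 was at 799 against 49.1 CPM (4.03, 3.97 to 4.09) and at 2297 against 130 CPM (4.15, 4.11 to 4.18). The choice always kept another chemokine of the same class, and between 139 and 239 of the 243 cells so chosen in p16-LRTD, and between 150 and 201 of the 205 in p16-Alb-LRTD, were also chemokine-high HSCs. Ccl7 was at 167 against 8.36 CPM (4.32, 4.18 to 4.45) and at 353 against 11.7 CPM (4.91, 4.81 to 5.02). Cxcl9 was at 54.9 against 3.82 CPM (3.85, 3.62 to 4.07) and at 295 against 7.13 CPM (5.37, 5.25 to 5.50). Held-out Ccl2 was detected in 80.7% of the chosen cells against 53.6% of the others in p16-LRTD, and in 89.3% against 49.97% in p16-Alb-LRTD. Cxcl10 was detected in 69.5% against 21.3% and in 91.7% against 40.2%. Held-out Ccl7 was detected in 28.4% against 7.81% and in 57.6% against 8.84%. Cxcl9 was detected in only 4.53% against 1.87% and in 11.2% against 2.93%, so its ratios rest on few of the chosen cells.

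The choice of cells was also repeated on a random part of their UMIs. With each UMI assigned at random to one of 2 equal parts, 243 and 205 cells were chosen by the score of the first part. Of these, 179 in each library (73.7% and 87.3%) were also chosen when the score was taken from the second part. For the cells chosen in the first part, measured in the second part, the log2 ratios were 4.87 and 4.53 for Cxcl10, 4.10 and 4.85 for Ccl2, 4.62 and 5.52 for Ccl7, and 4.30 and 5.64 for Cxcl9. Across all eligible HSCs thinned to 5000 UMIs, Cxcl10 and Ccl2 were detected together 1.594 and 1.4995 times as often as the product of their shares, Ccl2 and Ccl7 1.72 and 2.04 times, and Cxcl9 and Cxcl10 2.58 and 2.08 times. Cxcl9 and Ccl2 stood at 0.958 and 1.30 times. Mixed barcodes were included here. In the endothelial gate, Cxcl9 and Cxcl10 were both frequent after thinning, at 31.2% and 35.6% for Cxcl9 and 23.3% and 46.3% for Cxcl10, while Ccl2 was found in 9.62% and 5.34%, and their part in these figures was not tested.

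Other genes of the chemokine-high HSCs were compared with the remaining HSCs of the same library. The cells had been chosen on these counts, so this comparison describes them and carries no test. Of 8396 genes with at least 10 CPM, as the mean of both groups, in each library, 41 were 2-fold or more higher in chemokine-high HSCs of both libraries (0.488%) and 17 were 2-fold or more lower (0.202%). In p16-LRTD alone, 60 of 8743 genes were higher (0.686%) and 72 lower (0.824%). In p16-Alb-LRTD alone, 209 of 8595 were higher (2.43%) and 76 lower (0.884%). The libraries differed mainly in how many genes passed on the high side. Of the 51 genes that passed on the high side in p16-LRTD and were measured in both, 48 had a ratio above 1 in the other library, as had 157 of 171 in the opposite direction. The log2 ratios of the 2 libraries had a Pearson correlation of 0.62 across genes, which are not independent. Of the 41 genes, 12 were on a list of NF-κB regulators and targets, 8 on a list of interferon-γ response genes, 2 on a type I interferon list, 2 among other chemokines and 1 among cytokine and pattern receptors, and 16 were on no list. The 4 score genes are not counted among them.

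**Figure D3:**
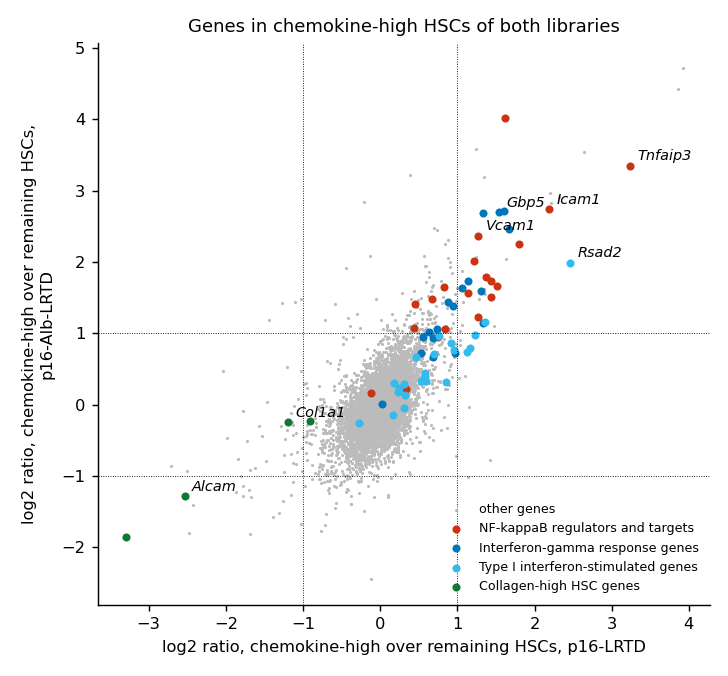
Log2 ratio of chemokine-high over remaining HSCs for each gene in p16-LRTD (x axis) and p16-Alb-LRTD (y axis), with the NF-κB, interferon-γ, type I interferon and collagen-high lists coloured and dotted lines at 2-fold. The 41 genes beyond 2-fold higher in both libraries lie at the upper right and the 17 beyond 2-fold lower at the lower left.

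The NF-κB list, which holds subunits, inhibitors and targets of this factor, was higher in the chemokine-high HSCs of both libraries. Its median log2 ratio was 1.27 in p16-LRTD, with 13 of the 21 genes of 30 that reached 10 CPM 2-fold or more higher, and 1.61 in p16-Alb-LRTD, with 17 of 20. The median over all genes was 0.00 and -0.02. Among subunits, Nfkb2, which encodes p100/p52, was at 22.9 against 8.85 CPM in p16-LRTD and at 37.2 against 10.8 CPM in p16-Alb-LRTD. Relb, its partner in the non-canonical pathway, was at 103 against 47.1 CPM and at 150 against 50.7 CPM. Nfkb1, the p105/p50 subunit, was at 233 against 146 CPM and at 424 against 152 CPM. Feedback inhibitors were higher as well. Nfkbia, which holds NF-κB in the cytoplasm, was at 585 against 243 CPM and at 777 against 332 CPM. Tnfaip3 (A20, chr10:19000910-19015657), an enzyme that ends the signal, was at 50.6 against 5.36 CPM, a log2 ratio of 3.24 (3.01 to 3.46), and at 95.1 against 9.32 CPM, a log2 ratio of 3.35 (3.18 to 3.51). One barcode of p16-LRTD held 44.8% of these Tnfaip3 UMIs, the log2 ratio without the 10 highest cells was 1.60 and 2.84, and without mixed barcodes the level there was 25.7 against 4.01 CPM. Tnip1, which works with Tnfaip3, was at 133 against 57.6 CPM and at 296 against 73.2 CPM, and Bcl3, a nuclear IκB protein, at 47.5 against 13.6 CPM and at 60.7 against 12.7 CPM.

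Adhesion molecules and growth factors on the same list were among the better covered genes. Icam1 (chr9:21015985-21028817), the ligand of leukocyte β2 integrins, was at 186 against 40.7 CPM, a log2 ratio of 2.19 (2.08 to 2.30), in p16-LRTD and at 392 against 58.8 CPM, 2.74 (2.66 to 2.82), in p16-Alb-LRTD. It had a UMI in 73.7% and 87.8% of chemokine-high HSCs, against 44.1% and 53.9% of the remaining HSCs. In p16-LRTD 1 cell held 20.1% of the Icam1 UMIs and 10 cells 42.2%, and without these 10 the log2 ratio was 1.48, against 2.42 in p16-Alb-LRTD. Leaving out a gene's own highest cells lowers the ratio of any gene. Vcam1, the ligand of integrin α4β1, was at 402 against 166 CPM and at 1011 against 196 CPM. Icam1 was thus detected in most chemokine-high HSCs. Csf1, the macrophage growth factor, was at 370 against 129 CPM and at 405 against 128 CPM, with a UMI in 93.4% and 97.6% of chemokine-high HSCs. Il34, which is not on the list and encodes the other ligand of the Csf1 receptor, was at 472 against 226 CPM and at 590 against 271 CPM. Birc3, an inhibitor of apoptosis downstream of TNF receptors, had log2 ratios of 1.43 and 1.51. Genes of this list did not all differ: the log2 ratio was 0.33 and 0.22 for Nfkbiz and -0.12 and 0.16 for Irak3, and Il6 had 1 UMI in the chemokine-high HSCs of each library. Without mixed barcodes the list median was 1.16 and 1.62, with 13 of 21 and 17 of 20 genes 2-fold or more higher.

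The interferon-γ response list had a median log2 ratio of 0.95 in p16-LRTD, with 8 of 18 measured genes 2-fold or more higher, and of 1.39 in p16-Alb-LRTD, with 13 of 19. All its measured genes had ratios above 1 in both libraries, although Serping1 was at 0.03 and 0.01. Irf1, a transcription factor of this pathway, was at 226 against 89.9 CPM in p16-LRTD and at 303 against 138 CPM in p16-Alb-LRTD. The GTPases that act against intracellular pathogens were higher as well. Gbp2 was at 100 against 39.9 CPM and at 311 against 48.4 CPM. Gbp4 had log2 ratios of 1.67 and 2.46, and Gbp5 was at 60.8 against 20.98 CPM and at 224 against 34.7 CPM. Ifi47, another GTPase, had log2 ratios of 1.30 and 1.59. Cd274 (PD-L1), which restrains T cells, was at 20.04 against 6.62 CPM and at 66.8 against 10.2 CPM. Part of this came from few cells: without the 10 highest cells the log2 ratio in p16-LRTD was 0.53 instead of 1.33 for Gbp2, with a UMI in 48.6% of chemokine-high and 43.9% of remaining HSCs, and 0.44 instead of 1.60 for Cd274, whereas it was 1.14 for Gbp5 and 1.005 for Ifi47. In p16-Alb-LRTD these ratios were 2.03 for Gbp2, 1.15 for Cd274, 2.16 for Gbp5 and 1.35 for Ifi47. Serpina3g, an interferon-inducible protease inhibitor that is not on the list, was at 75.9 against 12.1 CPM, a log2 ratio of 2.64 (2.47 to 2.82), and at 446 against 38.4 CPM, 3.54 (3.46 to 3.62), or 1.91 and 3.20 without the 10 highest cells. Reads of Serpina3g and Serpina3f, and those of the Gbp family, may be split between near-identical copies. Without mixed barcodes the list median was 0.94 and 1.40.

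Type I interferon-stimulated genes differed less. Their median log2 ratio was 0.58 in p16-LRTD and 0.42 in p16-Alb-LRTD, with 5 of 23 and 3 of 24 genes 2-fold or more higher, and without mixed barcodes it was 0.63 and 0.41. Isg15, a ubiquitin-like protein, was at 371 against 159 CPM and at 685 against 348 CPM. Ifit1, which binds viral RNA, was at 148 against 57.8 CPM and at 294 against 132 CPM, but the 10 highest cells held 51.0% and 42.6% of its UMIs, and without them its log2 ratio was 0.39 and 0.43. For Isg15 it was then 0.61 and 0.71. Rsad2 (viperin) was at 86.4 against 15.7 CPM and at 221 against 55.8 CPM, but the 10 highest cells held 76.0% and 70.0% of its UMIs, and without them its log2 ratio was 0.46 and 0.33. Irf7, the master factor of the type I response, had log2 ratios of 0.30 and -0.05. Antigen presentation genes had medians of 0.29 and 0.47. Tap1, the peptide transporter, was the clearest of those named, with 55.1 against 33.7 CPM and 92.2 against 41.3 CPM, while B2m stood at log2 ratios of 0.09 and 0.03.

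Of the chemokines outside the score that reached 10 CPM, 2 of 10 were 2-fold or more higher in p16-LRTD and 6 of 12 in p16-Alb-LRTD, and their median log2 ratio was 0.24 and 1.23. Cxcl1, a neutrophil attractant, was at 159 against 31.8 CPM in p16-LRTD, a log2 ratio of 2.32 (2.20 to 2.44), and at 396 against 52.6 CPM in p16-Alb-LRTD, 2.91 (2.84 to 2.99). It had a UMI in 46.9% and 74.1% of chemokine-high HSCs, against 22.0% and 30.8% of the remaining HSCs. Cxcl5, which acts on the same receptor, was at 26.7 against 1.77 CPM and at 44.5 against 1.69 CPM, in 11.5% and 25.9% of the cells. The 10 highest cells held 51.7% and 34.8% of the Cxcl1 and 76.8% and 58.2% of the Cxcl5 UMIs, and without them the log2 ratios were 1.34 and 2.37 for Cxcl1 and 1.90 and 3.53 for Cxcl5. Ccl19, a ligand of Ccr7, had log2 ratios of 0.97 and 1.56 and a UMI in 23.05% and 46.3% of the cells. A few others rested largely on single cells. One cell held 85.7% and 41.6% of the UMIs of Cxcl2, and one cell of p16-Alb-LRTD held 76.3% of those of Ccl5 and 59.7% of those of Ccl11. Cxcl12, a chemokine made without inflammation, was at 2892 against 2981 CPM and at 2572 against 3488 CPM. No UMI of Ccr2 or Cxcr3, the receptors of the score chemokines, was found in the chemokine-high HSCs, which allows up to 0.716 and 0.706 CPM in the 2 libraries. Tlr2, a receptor for bacterial lipoproteins, was at 20.8 against 4.50 CPM and at 40.9 against 5.24 CPM, while the TNF receptor gene Tnfrsf1a had log2 ratios of 0.12 and 0.30 and the interferon-γ receptor gene Ifngr1 of 0.14 and 0.52. Lifr, the leukaemia inhibitory factor receptor, was at 605 against 562 CPM and at 450 against 474 CPM.

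Of the 16 genes on no list, 4 are given as examples. Fas, a death receptor, was at 14.6 against 6.16 CPM in p16-LRTD and at 37.6 against 8.98 CPM in p16-Alb-LRTD, and Tnfrsf12a, the receptor of TWEAK, at 20.3 against 7.96 CPM and at 63.1 against 6.89 CPM. Ripk2, a kinase downstream of NOD receptors, was at 37.2 against 17.9 CPM and at 67.5 against 18.4 CPM, and Casp4, an inflammatory caspase, at 63.5 against 30.1 CPM and at 120 against 44.3 CPM. These genes were chosen for mention after their values were seen. Gm17268 was named by the ratio rule, at 80.9 against 17.4 CPM and at 137 against 19.3 CPM. It lies at chr11:82028224-82038562 on the minus strand and spans Ccl2, so its reads may include reads of Ccl2. Art3, which spans Cxcl10 on the other strand, had log2 ratios of 0.37 and 0.20.

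**Figure D4:**
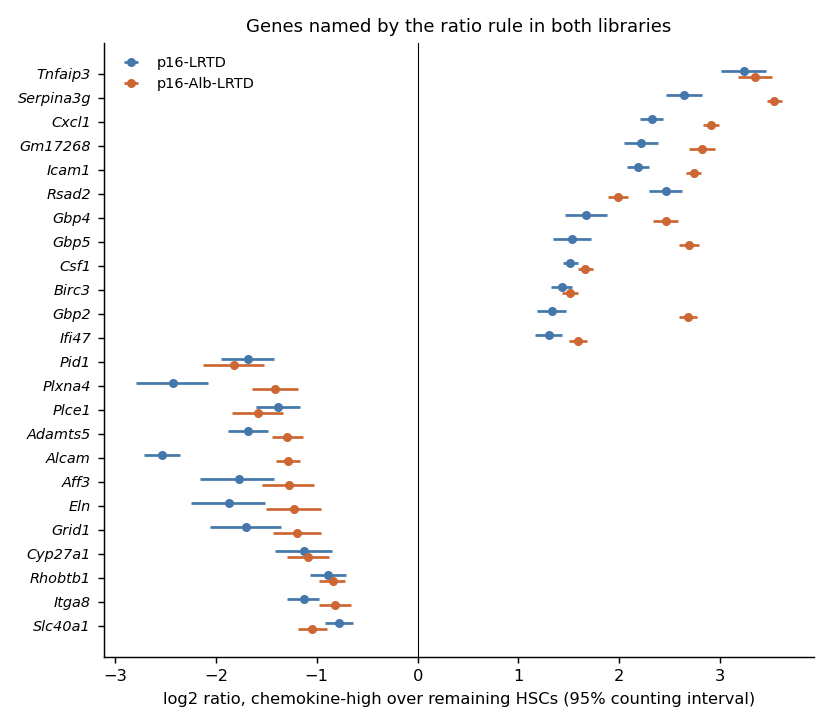
Log2 ratio of chemokine-high over remaining HSCs, with 95% counting intervals, for the 24 genes named by the ratio rule in both libraries. The 12 higher genes run from Tnfaip3, at 3.24 and 3.35, to Ifi47, at 1.30 and 1.59, and the 12 lower genes lie below 0 in both libraries.

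Promoters of the higher genes held the interferon and NF-κB motifs more often than promoters at large, as a description. Of the 41 genes that were 2-fold or more higher in both libraries, 31 had a promoter in the RefSeq table. Among these, 14 (45.2%) held the NF-kappaB consensus, 11 (35.5%) the GAS element and 5 (16.1%) the ISRE core, against 8.23%, 8.13% and 3.46% of 27025 genes. None of the 3 motifs was found in the 9 promoters available for the 17 lower genes. With so few promoters and the low shares over all genes, this does not set the lower genes apart from promoters at large. Counted over genes with a promoter in the table, the ISRE core was in 10 of 15 genes of the interferon-γ list (66.7%), 10 of 21 of the type I list (47.6%) and 1 of 25 of the NF-κB list (4%).

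Of the 17 genes that were 2-fold or more lower in chemokine-high HSCs of both libraries, 12 were on no list. Alcam, a cell adhesion molecule, was at 61.8 against 357 CPM in p16-LRTD and at 130 against 316 CPM in p16-Alb-LRTD. Adamts5, a protease of the matrix, was at 51.8 against 166 CPM and at 82.6 against 202 CPM. Eln (elastin) was at 15.03 against 54.8 CPM and at 27.5 against 64.3 CPM. The guidance receptor gene Plxna4 was at 15.99 against 85.9 CPM and at 38.1 against 101 CPM. Wt1 and Svep1 were also lower. Wt1, a transcription factor of mesothelium and of HSC development, was at 7.87 against 43.8 CPM and at 12.2 against 42.6 CPM, and Svep1, a matrix protein, at 2.39 against 23.5 CPM and at 8.24 against 29.9 CPM. Pid1, Plce1, Aff3, Grid1, Cyp27a1, Rhobtb1, Itga8 and Slc40a1, the other lower genes that the rule named, had log2 ratios from -1.82 to -0.78, and Rhobtb1, Itga8 and Slc40a1 are not among the 17. Alcam and Svep1 belong to a list of 4 genes that mark collagen-high HSCs and that was drawn up from these libraries, of which 3 and 2 were 2-fold or more lower.

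HSC activation genes did not move as one. The list median was 0.00 in p16-LRTD, with 0 of 13 genes 2-fold or more higher and 1 lower, and 0.20 in p16-Alb-LRTD, with 3 of 12 higher. Col1a1, the fibrillar collagen that defines activated HSCs, was at 848 against 1936 CPM in p16-LRTD and at 412 against 488 CPM in p16-Alb-LRTD. Col3a1 was at 2156 against 4047 CPM and at 1120.3 against 1312 CPM. The median chemokine-high HSC held 142 CPM of Col1a1 in p16-LRTD, against 380 CPM for the median remaining HSC, but 201 against 193 CPM in p16-Alb-LRTD. Col5a1, a collagen of the same fibrils, was at 436 against 435 CPM and at 318 against 290 CPM, so these collagens did not differ alike. Acta2, the smooth muscle actin of myofibroblasts, was at 58.0 against 44.5 CPM and at 90.8 against 9.77 CPM, but the 10 highest cells held 87.7% and 91.7% of it and the log2 ratio without them was -2.56 and -0.29. Timp1, an inhibitor of matrix proteases, was at 49.1 against 54.1 CPM and at 72.2 against 17.0 CPM, but the 10 highest cells held 45.1% and 55.0% of it and the log2 ratio without them was -0.92 and 1.02. The HSC transcription factor genes Hand2 and Lhx2 had log2 ratios of -0.40 and -0.37 in p16-LRTD and of -0.87 and -0.66 in p16-Alb-LRTD. Bambi, a decoy TGF-β receptor, had ratios of -0.69 and -0.91, and Ngfr, a neurotrophin receptor of HSCs, of 0.67 and 0.85. Proliferation genes summed to 121 against 376 CPM in p16-LRTD and to 97.4 against 130 CPM in p16-Alb-LRTD.

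Several lists had medians between 0.04 and 0.40. The median log2 ratio was 0.17 and 0.04 for stress genes, 0.16 and 0.09 for senescence and p53 genes, 0.32 and 0.38 for IL-6 and STAT3 targets and 0.15 and 0.40 for cytokine and pattern receptors. Of the lists for other cell types, sinusoidal endothelial markers had medians of 0.59 and -0.21 and summed to 800 against 547 CPM and to 685 against 594 CPM. Without mixed barcodes the endothelial median was 0.59 over 4 genes in p16-LRTD and -0.10 over 3 genes in p16-Alb-LRTD. Portal fibroblast and mesothelial markers had medians of -1.62 and -0.89, with 3 and 2 of 5 genes 2-fold or more lower, and smooth muscle and pericyte markers of 0.44 and 0.47, with 0 of 7 genes 2-fold or more higher. Short lists that mark other HSC states, drawn up from these libraries, had medians of -1.70 and -0.94 (Grid1 list), -0.11 and -0.81 (Galnt14 list), -0.03 and -0.19 (Tgfbi list) and 0.69 and -0.04 (pericyte-like list). The reporter tdTomato was at 4.77 CPM (2.91 to 7.37, 20 UMIs) in chemokine-high HSCs of p16-LRTD and 5.65 CPM (3.62 to 8.403, 24 UMIs) in those of p16-Alb-LRTD, against 3.03 and 5.80 CPM in the remaining HSCs, differences that were not detectable at this depth.

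The NF-κB and interferon-γ lists were higher at each higher score, below the cut as well as above it. With mixed barcodes left out, the NF-κB list was 0.22 above the cells of score 0 (median log2 ratio) at scores up to 0.5 in both libraries. It was 0.65 and 0.58 above them at 0.5 to 1, 1.07 in both at 1 to 1.5, 1.49 and 1.76 at 1.5 to 2, and 2.22 and 2.15 above 2. The interferon-γ list went from 0.22 and 0.21 in the lowest of these bins to 2.22 and 2.02 in the highest. The type I list stood at 1.67 in p16-LRTD and at 0.49 in p16-Alb-LRTD in the highest bin, the latter below the 0.52 it had at 1 to 1.5, and the HSC identity list ended at -0.31 and -0.26. The bin above 2 held only 14 cells in p16-LRTD and 59 in p16-Alb-LRTD, and without it the p16-LRTD series ended at 1.49 for NF-κB, 1.66 for interferon-γ and 1.06 for type I genes. The endothelial list stood at 0.21 and 0.28 in this bin. Mixed barcodes were left out by this list among others, which limits how high it can stand. With mixed barcodes kept it was at 1.63 and 3.18 there, and at 2.28 and 3.38 at 0.5 to 1.

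**Figure D5:**
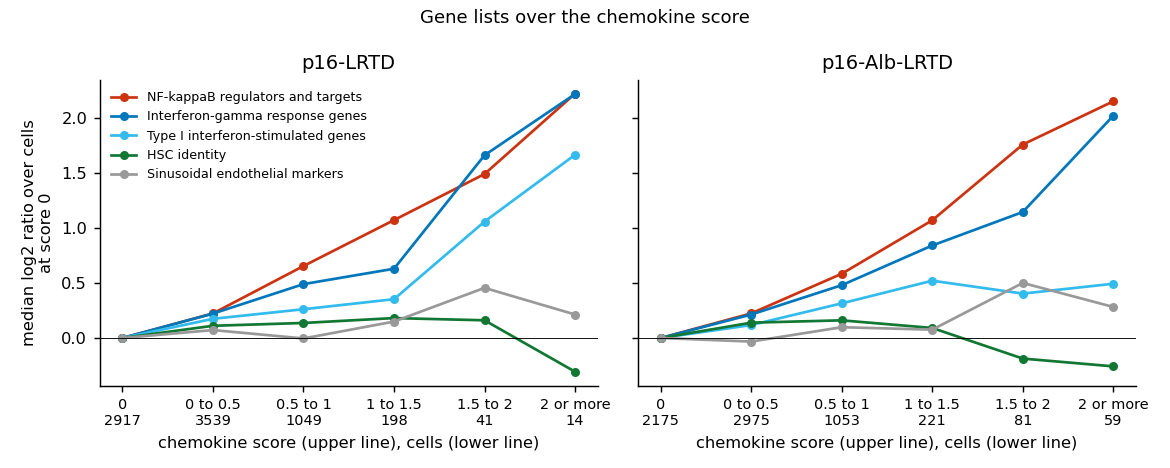
Median log2 ratio of 5 gene lists over cells of score 0 (y axis) by bin of the chemokine score (x axis), mixed barcodes left out, in p16-LRTD and p16-Alb-LRTD. The NF-κB list reaches 2.22 and 2.15 and the interferon-γ list 2.22 and 2.02 in the highest bin, which holds 14 and 59 cells, while the HSC identity list ends at -0.31 and -0.26. The endothelial list was itself used to leave out mixed barcodes, which holds it low here.

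The chemokine-high HSCs were also compared among themselves. Cells whose CXC terms exceeded their CC terms were set against the others, without mixed barcodes (31 against 200 cells in p16-LRTD, 31 against 162 in p16-Alb-LRTD). The interferon-γ list was higher in the CXC-led cells, with a median log2 ratio of 1.34 and 1.17 and 14 of 19 genes 2-fold or more higher in each library. Over all genes measured in this comparison, 2.07% of 8495 in p16-LRTD and 2.72% of 8418 in p16-Alb-LRTD were 2-fold or more higher, and 2.5% and 2.16% lower. The type I list was higher as well, at 1.22 and 0.92. The NF-κB list was not, at -0.14 and -0.19, and the endothelial list stood at -0.35 and 0.01. Gbp2 was at 351 against 60.3 CPM in p16-LRTD and at 776 against 205 CPM in p16-Alb-LRTD. Icam1 had log2 ratios of 0.23 and 0.30, Nfkbia of -0.37 and -0.30 and Csf1 of -0.54 and -0.51. Of 21 NF-κB genes, 2 were 2-fold or more higher and 2 lower in p16-LRTD, and 2 higher and 0 lower in p16-Alb-LRTD. With mixed barcodes kept, the NF-κB list was at 0.21 and -0.16 and the endothelial list at 3.21 and 3.24. Icam1 was then at 1.498 and 0.07, Nfkbia at 0.39 and -0.31 and Csf1 at -0.14 and -0.66. In p16-LRTD the signs of the NF-κB list and of Nfkbia thus depended on leaving mixed barcodes out. The cells were split by chemokines of the score, so these values are a description.

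Genotype was compared first over all eligible HSCs, which the chemokine score had no part in choosing. The summed level of each chemokine was higher in the p16-Alb-LRTD library. Cxcl10 was at 69.6 CPM (68.3 to 71.0) in p16-LRTD and at 200.2 CPM (197.8 to 202.6) in p16-Alb-LRTD, or 1.52 (1.49 to 1.56) as a log2 ratio. Cxcl9 was at 5.25 and 16.4 CPM (1.64, 1.52 to 1.76) and Ccl7 at 12.7 and 22.9 CPM (0.85, 0.77 to 0.93). Ccl2 differed less, at 248 and 330.0 CPM (0.41, 0.39 to 0.43), and its log2 ratio was 0.16 after thinning each cell to 5000 UMIs and 0.18 as a mean of per-cell CPM. The share of eligible HSCs with a Ccl2 UMI went the other way, from 54.4% in p16-LRTD to 51.1% in p16-Alb-LRTD, and from 35.7% to 32.7% after thinning. In the remaining HSCs the ratio was 1.60 for Cxcl10 and 0.07 for Ccl2, and in the chemokine-high HSCs 1.24 for Cxcl10 and 0.69 for Ccl2. These groups were split on the genes compared, so the values are a description. With a single cut of 1.15 for both libraries, 162 cells of p16-LRTD passed, or 2.002% of eligible HSCs (1.71% to 2.33%, Clopper-Pearson), and 286 cells of p16-Alb-LRTD, or 4.18% (3.72% to 4.68%). Genotype and library cannot be told apart, and the spread between mice is unknown.

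Chemokine-high HSCs of the 2 genotypes were then compared with each other. Of 8587 genes, 191 were 2-fold or more higher in p16-Alb-LRTD (2.22%) and 113 lower (1.32%), against 0.85% and 0.655% of 8708 genes in the remaining HSCs. The cut was higher in p16-Alb-LRTD, and with the single cut of 1.15 the counts were 154 (1.8%) and 82 (0.957%) of 8572 genes. The interferon-γ list had a median log2 ratio of 1.20 among chemokine-high HSCs, with 14 of 19 genes 2-fold or more higher, and of 0.73 in the remaining HSCs. With the single cut it was 0.88, with 8 of 19. The NF-κB list was at 0.70, against 0.23 in the remaining HSCs and 0.46 with the single cut. The type I list was at 0.78, against 1.02 in the remaining HSCs and 0.57 with the single cut. The type I genes thus differed between the libraries in the remaining HSCs as well. So did genes that respond to tissue dissociation, with medians of 0.57 in chemokine-high HSCs, where 23 of 24 had ratios above 1 and 6 were 2-fold or more higher, 0.66 in the remaining HSCs and 0.51 with the single cut. Glucocorticoid targets stood at 0.67, 0.91 and 0.80. With the single cut, endothelial markers were also higher in p16-Alb-LRTD, with a median of 1.34 and 9 of 14 genes, as were Kupffer cell markers, with 1.23. With the library-specific cuts the endothelial median had the opposite sign, -0.57 with 12 of 14 genes below 0, and the Kupffer cell median was 1.45. The part of these 4 lists in the differences was not tested.

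Among the genes named by their ratio between genotypes, several differed in the same direction in the remaining HSCs. Zbtb16, a glucocorticoid-induced transcription factor gene, was at 48.0 CPM in chemokine-high HSCs of p16-LRTD and 480 CPM in those of p16-Alb-LRTD, a log2 ratio of 3.32, and of 3.46 in the remaining HSCs. Serpina3g was at 75.9 and 446 CPM, with 2.56 here and 1.66 in the remaining HSCs. Fam26f, an interferon-induced gene, was at 33.6 and 136 CPM, with 2.01 against 0.30, and 1.44 with the single cut. Among lower genes, the Notch receptor gene Notch3 was at 54.6 and 8.0 CPM (log2 ratio -2.77, and -1.58 in the remaining HSCs), and its target Heyl at 140 and 31.3 CPM (-2.16 and -1.55). Mest was at 221 and 39.8 CPM (-2.47 and -1.49), Clstn2 at 232 and 68.2 CPM (-1.76 and -1.48) and S100a6 at 52.97 and 5.41 CPM (-3.29 and -2.64). These genes were lower in p16-Alb-LRTD in both kinds of HSC. For S100a6, 10 cells held 82.9% of the UMIs in chemokine-high HSCs of p16-LRTD, and the ratio was -2.35 with the single cut. Tmem178 and Nmnat2 had ratios of -1.99 and -1.97, and F830016B08Rik and Serpina3f of 2.02 and 2.81. Saa3, an acute-phase protein gene, had a ratio of -4.26, but 98.6% of its UMIs in p16-LRTD came from 1 cell, and with the single cut the ratio was 1.62 (-0.14 to 4.02). Cxcl2 had a ratio of 2.52, and of 1.55 with the single cut. One cell held 85.7% of its UMIs in chemokine-high HSCs of p16-LRTD. In those of p16-Alb-LRTD 1 cell held 41.6% and 10 cells 77.8%. Ankrd1 had a ratio of 3.45, and in the remaining HSCs it was below the 10 CPM minimum, at 1.503 and 1.204 CPM. Dclk1 had a ratio of 1.97, against -1.07 in the remaining HSCs.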

How the data were processed

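Single-cell RNA was measured in 1 HSC library per genotype. Per the labels and the submitters' processing notes, the libraries were made with the 10x Genomics 3′ v3.1 kit and processed with Cell Ranger 7.0.1 and the mm10 genome. The authors deposited raw counts, the UMI counts per gene and barcode, which were used here as deposited. The p16-LRTD library held 193746596 UMIs and the p16-Alb-LRTD library 162219167. Of 31054 features, 31011 had their identifier in GENCODE vM21 (GRCm38), from which gene coordinates were taken. For 35 symbols that stood on more than 1 row, the first was used.

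The limits on mitochondrial share, genes and UMIs were those of the study. No doublet caller was run, and the upper limits stood in for it. Members, gene lists and alternatives were chosen with earlier results of these data known. UMIs were summed over the cells of a group and given as CPM. Intervals are exact Poisson for levels, exact conditional for ratios and Clopper-Pearson for shares, at 95%. Only the ratio intervals were tried on simulated data. These were Poisson counts, so the trial cannot show how the intervals hold where UMIs vary between cells. Genes needed 10 CPM as the mean of the groups compared. Named genes were, among those with 50 CPM or more in the higher group of both libraries, the 12 highest and 12 lowest by the smaller of their 2 ratios, and, between genotypes, the 8 highest and 8 lowest with 50 CPM in a library. Score, gate, mitochondrial, ribosomal, haemoglobin and sex-linked genes were left out. Since each genotype had 1 library, nothing was tested. Alternatives changed the share of cells taken, the HSC gate, the mitochondrial limit, mixed barcodes, depth, the level, the scaling and the minimum level. Python 3.11.15, NumPy 2.4.6, SciPy 1.17.1, pandas 2.3.3 and matplotlib 3.10.9 were used.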

Additional observations from a re-analysis of the deposited data

Results flagged for a closer look

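Several values had opposite signs in the 2 libraries. The difference between libraries was not tested in any of them, since each genotype had 1 library. The HSC identity list had a median log2 ratio of chemokine-high over remaining HSCs of 0.068 in p16-LRTD and -0.29 in p16-Alb-LRTD, and the HSC quiescence list of 0.091 and -0.37. The Kupffer cell list was at -1.03 and 1.42 and the monocyte and macrophage list at -0.53 and 0.80. Without mixed barcodes, which were left out by these lists, the signs were the same in both libraries. The Kupffer cell list was then at -0.65 and -1.15 and the macrophage list at 0.15 and 0.35, each over 1 gene. For the Kupffer cell list this gene was Slc40a1, which had a UMI in 83.4% and 89.0% of the remaining HSCs. With mixed barcodes kept, complement genes of Kupffer cells also had opposite signs, at -1.10 and 1.43 for C1qa, -1.03 and 1.48 for C1qb, and -1.27 and 1.43 for C1qc. In p16-Alb-LRTD, 1 chemokine-high barcode held 76.5% of the C1qa, 60.8% of the C1qb and 67.9% of the C1qc UMIs of these cells.

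Sulf1, a sulfatase of heparan sulfate chains, was at 5.73 against 15.6 CPM in p16-LRTD (log2 ratio -1.44) and at 30.6 against 13.5 CPM in p16-Alb-LRTD (1.18). Necab2, a calcium-binding protein, was at 25.5 against 11.6 CPM (1.13) and at 8.71 against 17.7 CPM (-1.02). Ankrd1, a target of YAP, was higher in p16-Alb-LRTD among chemokine-high HSCs, with a log2 ratio of 3.45, and lower among remaining HSCs, with -0.32. In the remaining HSCs it was at 1.503 and 1.204 CPM, below the minimum of 10 CPM, and 1 cell held 47.2% of its UMIs in the chemokine-high HSCs of p16-Alb-LRTD. Dclk1, a microtubule-associated kinase, was at 1.97 in chemokine-high HSCs and -1.07 in remaining HSCs, and the 10 highest cells held 87.3% and 63.4% of its UMIs in the chemokine-high HSCs of p16-LRTD and p16-Alb-LRTD.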

How the results depend on the processing

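No paired analysis was possible because there was 1 library for each genotype. Values below are given for p16-LRTD, then p16-Alb-LRTD. With the top 1% of cells, the share above the single cut was 0.457% and 1.65%, the median held-out log2 ratio 4.78 and 5.2, and the list medians 1.56 and 1.91 for NF-κB, 1.51 and 1.70 for interferon-γ, 1.18 for type I genes in p16-LRTD and -0.37 and 2.50 for Kupffer cell markers. With it, 117 and 47 genes were 2-fold higher and lower in both libraries, and 370 and 341 between genotypes. With the top 5%, the share was 3.78% and 6.45%, the held-out ratio 3.32 and 4.20, interferon-γ 0.73 and 1.13, NF-κB 1.33 and Kupffer cell markers 0.97 in p16-Alb-LRTD, with 26 genes higher in both libraries and 75 lower between genotypes.

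A gate of 30 per 10000 gave a held-out ratio of 4.52 in p16-Alb-LRTD and genotype ratios of 1.48 for Cxcl10 and 0.37 for Ccl2. Without mixed barcodes the held-out ratio was 4.09 in p16-LRTD, Kupffer cell markers turned to -1.15 in p16-Alb-LRTD, and the genotype ratios were 2.02 for Cxcl9 and 1.48 for Cxcl10. With 10000 to 30000 UMIs, Kupffer cell markers turned to -1.23 in p16-Alb-LRTD, the held-out ratio was 3.59 in p16-LRTD and Cxcl10 1.39. After thinning, Kupffer cell markers were at -0.16 in p16-LRTD, 28 genes were lower in both libraries, the genotype ratios were 1.46 for Cxcl9, 1.38 for Cxcl10, 0.16 for Ccl2 and 0.76 for Ccl7, and 298 and 262 genes differed between genotypes. Splitting the UMIs gave a held-out ratio of 3.78 in p16-LRTD and 176 lower genes between genotypes. As a mean of per-cell CPM, the held-out ratio was 4.15 in p16-LRTD, Kupffer cell markers were at -0.41 and 0.99, and Cxcl9, Cxcl10 and Ccl2 at 1.46, 1.40 and 0.18. Median-of-ratios scaling gave 1.56 for Cxcl10 and 0.45 for Ccl2. With no minimum level, activation genes were at -0.14 in p16-LRTD, 284 and 178 genes differed in both libraries and 817 and 1268 between genotypes. With 50 CPM, interferon-γ was at 1.14 and Kupffer cell markers turned to -1.04 in p16-Alb-LRTD, with 15 and 5 genes in both libraries and 75 and 31 between genotypes. The single cut of 1.15 gave 154 and 82 genes between genotypes. The comparisons with this cut, and those within chemokine-high HSCs without mixed barcodes, were chosen after seeing the data.

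The mitochondrial limit of 10% moved no median or ratio by more than its counting interval and no count by more than 1.5 times, and all 24 genes named against the remaining HSCs kept their direction in 12 of 12 alternatives in both libraries. The Kupffer cell median in p16-Alb-LRTD changed sign with mixed barcodes left out, with the depth range and with 50 CPM. It rests on 7 of 12 genes. The value without mixed barcodes, which were left out by this list among others, rests on 1 gene, Slc40a1. In the remaining HSCs of this library Slc40a1 was at 192 CPM and had a UMI in 89.0% of cells. The value of -1.04 with 50 CPM equals the ratio of Slc40a1. The value of -1.23 with the depth range is the lowest ratio that Slc40a1 took. The changed signs thus describe a gene that most HSCs carried. The chemokine-high HSCs held 4191338 and 4249769 UMIs, which limits the precision of genes near 10 CPM. The variation between mice and between library preparations was not measured.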
